A study of Mus musculus with 4 samples.

Results

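To describe how genes of the glucocorticoid and fasting response stood in ear tissue of mice that had breathed diesel exhaust particles (DEPs), 8 genes were followed on 4 two-colour microarrays. They are Fkbp5, Tsc22d3, Sgk1, Zbtb16, Pdk4, Angptl4, Klf9 and Errfi1. Every probe that was no control spot and whose accession maps to one of these symbols was taken. Each gene had 1 probe, so 8 probes of the 39429 on the array represent them, among 25694 genes tested, of which 17962 carry a symbol and 7732 are known here by an accession alone. Both channels of all 8 probes stood well above background on each of the 4 arrays.

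Each array carried an extract of an ear labelled DEP in Cy5 and an extract of a control ear, whose treatment is given as none, in Cy3. The labels call the arrays biological replicates. The animals were male BALB/c mice of 6 to 10 weeks that inhaled the particles for 1 h per day on 5 days and were killed on day 14. The study harvested temporal bone areas that included the middle ear, and describes RNA from dissected middle ears. In all 9 mice were used, and how many of them went into an extract is not given in the sources used here. No array had the dyes the other way round, so a dye effect and an effect of exposure cannot be told apart. The treatment labels place both conditions in Cy5, so the source names, which give DEP as Cy5, were followed. With this direction, most genes for which the study names a direction move the opposite way. The study's directions did not rest on arrays alone. Its quantitative PCR gave higher Chrm1 and Epo and lower Esr1, Sos1, Cd4 and Ifna1 after exposure, the directions it reports from its arrays. If the channels were exchanged every sign below would turn, and whether they were was not tested.

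Glucocorticoids bind the glucocorticoid receptor, which then enters the nucleus and binds DNA at glucocorticoid response elements, palindromes of a short half-site. Some of the genes it induces, such as Fkbp5, restrain the receptor in turn, and others spread the signal to ion transport, immune restraint and growth control. During fasting, glucocorticoids act together with the forkhead factors of the FoxO family and with PPAR nuclear receptors, which turn on fat breakdown and spare glucose. Pdk4 and Angptl4 are among the best known genes of that programme.

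RefSeq promoter windows of GRCm38.p6, which run from 250 bases before a transcript's start to 50 bases after it, were at hand for 6 of the 8 genes, in 14 windows. Sgk1 had 6 of these windows, Tsc22d3 3, Errfi1 2, and Fkbp5, Pdk4 and Klf9 1 each, while Zbtb16 and Angptl4 had none. The windows were searched on both strands for 6 motifs. The full palindrome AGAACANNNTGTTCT lay in 1 window of these genes, at a start of Sgk1, and in 3 of all 32851 windows (0.00913%). The looser core GNACANNNTGTNC, which overlaps it, was found at that same place among these genes and in 0.475% of all windows. The half-site AGAACA, part of the palindrome, lay in 4 of the 14 windows, 3 of Sgk1 and 1 of Tsc22d3, beside 19.0% of all windows. The forkhead motif GTAAACA was found in the window of Klf9 and in 3.65% of all windows. The cyclic AMP response element TGACGTCA was found in 1 window of Errfi1 and in 1.79% of all windows. The PPAR motif AGGNCANAGGNCA, a direct repeat, was in none of the 14 windows and in 0.381% of all. A match is a run of letters and no measured binding, and the array's own probe coordinates are on an older build, so no position was compared with them.

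The 4 stretches below show, in capitals, the palindrome of Sgk1, the forkhead match of Klf9 and the cyclic AMP element of Errfi1, beside the window of Fkbp5, the gene with the highest mean ratio of the 8. The first is the upstream part of the Sgk1 window with the palindrome, chr10:21993640-21993889 on the plus strand, where the palindrome spans 21993701 to 21993715 and ends 174 bases short of the start. A further half-site match near the beginning of that stretch, at 21993648 to 21993653, is left in lower case. The second is the upstream part of the Fkbp5 window, chr17:28486150-28486399 on the minus strand, which holds none of the 6 motifs. The third is the Klf9 forkhead match with 30 bases on each side, chr19:23141096-23141162 on the plus strand. The last is the Errfi1 match with the same flanks, chr4:150854989-150855056 on the plus strand.
Sgk1: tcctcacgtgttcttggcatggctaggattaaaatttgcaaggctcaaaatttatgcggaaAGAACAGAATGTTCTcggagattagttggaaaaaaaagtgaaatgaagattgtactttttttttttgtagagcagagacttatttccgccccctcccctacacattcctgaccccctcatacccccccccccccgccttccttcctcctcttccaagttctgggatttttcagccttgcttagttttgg
Fkbp5: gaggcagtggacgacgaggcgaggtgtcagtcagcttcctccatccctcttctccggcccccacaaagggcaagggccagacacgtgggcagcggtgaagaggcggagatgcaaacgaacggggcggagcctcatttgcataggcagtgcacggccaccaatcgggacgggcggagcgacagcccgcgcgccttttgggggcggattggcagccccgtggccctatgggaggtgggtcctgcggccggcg
Klf9: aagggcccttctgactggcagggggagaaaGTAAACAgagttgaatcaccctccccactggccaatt
Errfi1: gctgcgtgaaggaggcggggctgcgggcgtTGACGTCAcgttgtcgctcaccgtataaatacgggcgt

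Arrays 1 and 4 differed from the others in separate ways. The SD of the log2 ratios over probes was 0.97 on array 1, against 0.63 to 0.69 on the other arrays. The ratios of array 1 correlated across probes with those of array 2 at r = 0.61 and of array 3 at 0.38, while array 4 had the lowest correlations, at -0.22 with array 1, 0.14 with array 2 and 0.29 with array 3. Probes do not count as independent replicates. Where a value of the 8 genes rests on 1 of these arrays, it is given with and without it. The mean ratio of the 25694 genes had a median of 0.03, and none of them passed limma at an adjusted p under 0.05 (0%), while 18.7% had an unadjusted p under 0.05, 2573 higher and 2226 lower. In whole-tissue extracts, fewer cells of a type and less RNA per cell cannot be told apart.

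Of the 8 genes, Fkbp5 and Sgk1 were higher in the DEP channel on all 4 arrays, and none was lower on all 4. Among genes with 4 ratios, 17.2% were higher and 11.5% lower on all arrays. At an unadjusted p under 0.05 in limma, 2 of the 8 were higher and 0 lower, beside 18.7% of all genes in either direction. None passed after adjustment over all 31577 probes tested, and none had a mean ratio past 2-fold, a size that 6.75% of all genes reached. The median of the 8 mean ratios was -0.01 on the log2 scale, and 0.13 without array 1.

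**Figure D1:**
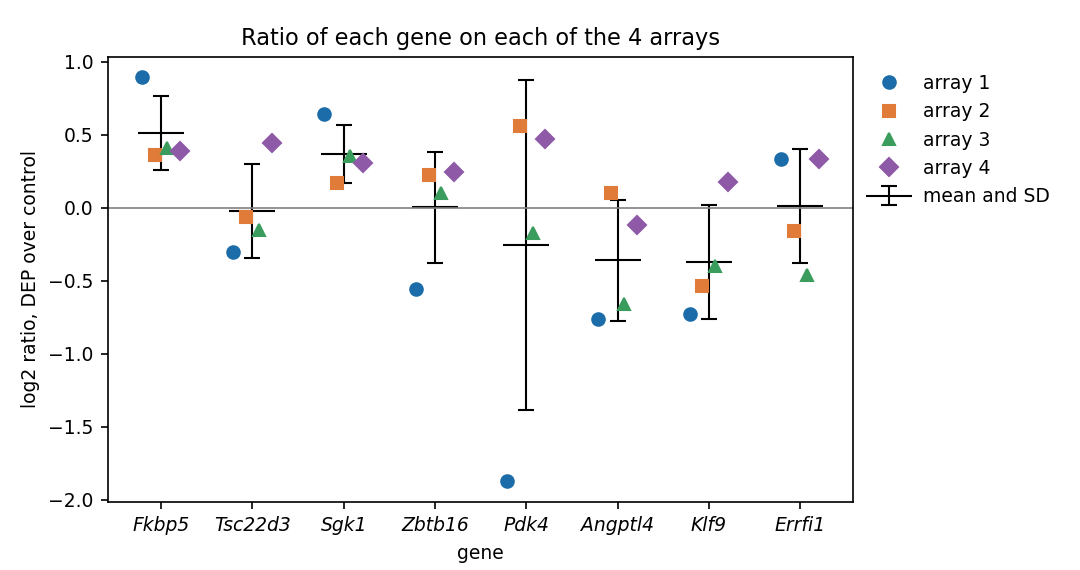
Log2 ratio of the DEP channel over the control channel for each of the 8 genes on each of the 4 arrays (points), with the mean and the SD over the arrays (line and bar). Fkbp5 and Sgk1 lie above 0 on all arrays, and Pdk4 runs from -1.87 on array 1 to 0.56 on array 2.

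Fkbp5 encodes a co-chaperone of Hsp90 that sits in the receptor complex and lowers its affinity for hormone, and its transcript is a widely used readout of glucocorticoid action. Its scaled signal, in log2 units, was 11.12, 10.38, 10.43 and 10.50 in the DEP extracts of arrays 1 to 4 and 10.23, 10.02, 10.02 and 10.11 in the control extracts. The 4 DEP extracts were thus all above the 4 control extracts, as in 8.19% of the genes with 4 ratios. The control extracts lay within 1.16-fold of each other, and the DEP extract of array 1 was the highest of the 8. The log2 ratios were 0.89, 0.36, 0.41 and 0.39, a mean of 0.51 ± 0.25 (SD, n = 4 arrays), or 1.43-fold. In limma this gave an SE of 0.14, an unadjusted p of 0.0138 and an adjusted p of 0.185. Without array 1 the mean was 0.39, with an unadjusted p in limma of 0.0224.

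Sgk1, a kinase that keeps epithelial sodium channels at the cell surface and is induced by glucocorticoids and mineralocorticoids, is the gene whose promoter window held the full palindrome. Its scaled signals were 12.34, 11.71, 11.78 and 11.60 in the DEP extracts and 11.70, 11.54, 11.43 and 11.30 in the control extracts. Each DEP extract was above the control extract on its own array, but the groups overlapped, since the DEP extract of array 4 was below the control extract of array 1. The log2 ratios of 0.64, 0.17, 0.35 and 0.31 had a mean of 0.37 ± 0.20 (SD, n = 4), or 1.29-fold, with an SE of 0.12, an unadjusted p of 0.0312 and an adjusted p of 0.234 in limma. The unadjusted p was above 0.05 when array 1, 3 or 4 was left out (0.0707, 0.0925 and 0.0780).

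Tsc22d3, also called GILZ, a leucine zipper protein that carries much of the anti-inflammatory action of glucocorticoids, had log2 ratios of -0.30, -0.07, -0.15 and 0.44. Its mean was -0.02 ± 0.32 (SD, n = 4; adjusted p = 0.952, limma), and was 0.075 without array 1 and -0.17 without array 4. The scaled signals ran from 12.31 to 12.76 in the DEP extracts and from 12.24 to 13.07 in the control extracts, so the control extracts spanned the DEP extracts on both sides. Zbtb16, a zinc finger repressor also known as PLZF that glucocorticoids induce strongly in many cells, had log2 ratios of -0.56, 0.23, 0.10 and 0.25 and a mean of 0.00 ± 0.38 (SD, n = 4; adjusted p = 0.992). It was higher in the DEP channel on arrays 2 to 4 and lower on array 1, with a mean of 0.19 without array 1 and -0.077 without array 4. On array 1 the control extract, at 10.80, was the highest of the 8 extracts.

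Klf9, a Krüppel-like transcription factor that the receptor induces directly, stood lower in the DEP channel on arrays 1 to 3. Its scaled signals were 11.17, 10.94, 11.21 and 11.26 in the DEP extracts and 11.90, 11.47, 11.61 and 11.09 in the control extracts. The DEP extracts varied by 1.25-fold and the control extracts by 1.75-fold, and the groups overlapped through array 4 alone. The log2 ratios of -0.73, -0.53, -0.40 and 0.18 had a mean of -0.37 ± 0.39 (SD, n = 4), with an unadjusted p of 0.0940 and an adjusted p of 0.335 in limma. Leaving out 1 array at a time gave means of -0.25, -0.32, -0.36 and -0.55 without arrays 1, 2, 3 and 4, with unadjusted p of 0.253, 0.246, 0.204 and 0.0205, and median centring, described below, gave -0.027, or -0.29 relative to the median gene of that scaling. Klf9 lay as far below 0 as Sgk1 lay above it, with a wider spread between arrays.

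Errfi1, also called MIG6, a feedback inhibitor of the EGF receptor, had ratios of 0.33, -0.16, -0.46 and 0.33 and a mean of 0.01 ± 0.39 (SD, n = 4; adjusted p = 0.975). Without array 1 the mean was -0.095, and without array 4 it was also -0.095. Its DEP extracts lay within 1.16-fold of each other and its control extracts within 1.58-fold. All 4 DEP extracts fell between the lowest and the highest control extract.

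**Figure D2:**
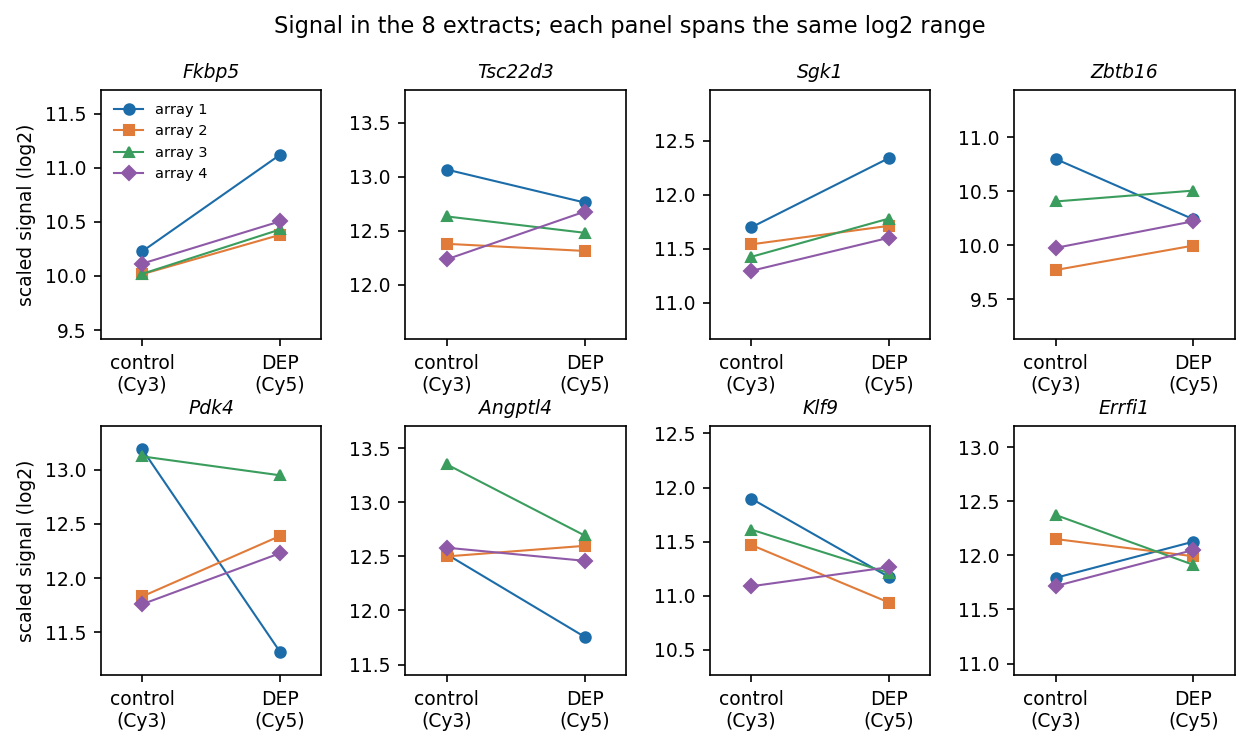
Scaled log2 signal of each of the 8 genes in the control (Cy3) and DEP (Cy5) extracts, with a line joining the 2 extracts of an array and every panel spanning the same range. The Fkbp5 extracts separate, at 10.38 to 11.12 against 10.02 to 10.23, while the lines of Pdk4 and Errfi1 cross.

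Pdk4, the kinase that shuts pyruvate dehydrogenase and so spares glucose during fasting, varied most of the 8. Its scaled signals were 11.32, 12.39, 12.95 and 12.23 in the DEP extracts and 13.19, 11.83, 13.12 and 11.76 in the control extracts. The control extracts fell into a high pair, on arrays 1 and 3, and a low pair, on arrays 2 and 4, and spanned 2.70-fold. The DEP extracts spanned 3.10-fold. The log2 ratios were -1.87, 0.56, -0.17 and 0.47, with a mean of -0.25 ± 1.13 (SD, n = 4; unadjusted p = 0.595, limma). On array 1 Pdk4 was 3.66-fold lower in the DEP channel, and without that array the mean was 0.29. Of the 18342 genes with 4 ratios that were well above background throughout, 94.6% had a smaller SD than Pdk4, against 32.6% for Sgk1 and 44.6% for Fkbp5.

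Angptl4, a secreted inhibitor of lipoprotein lipase that both glucocorticoids and PPARs induce, had log2 ratios of -0.76, 0.10, -0.66 and -0.12. The mean was -0.36 ± 0.42 (SD, n = 4), with an unadjusted p of 0.114 and an adjusted p of 0.360 in limma. Without array 1 it was -0.23, with an unadjusted p of 0.305. Its scaled signals were 11.76, 12.60, 12.69 and 12.46 in the DEP extracts and 12.52, 12.50, 13.35 and 12.58 in the control extracts. The low ratio of array 1 came with the lowest DEP extract of the 4, and the low ratio of array 3 with the highest control extract.

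The array with the low ratios of Pdk4, Angptl4, Klf9 and Zbtb16 was also low in several cell type markers. On array 1, the median log2 ratio was -0.82 over 8 skeletal muscle markers, -1.13 over 8 markers of neutrophils and their precursors, -0.90 over 6 erythroid markers and -2.40 over 8 neuronal markers, and every marker of these 4 lists was below 0 there. The medians of arrays 2, 3 and 4 were -0.54, 0.75 and 0.76 for muscle, 0.01, 0.60 and 0.29 for neutrophils, 0.19, 0.45 and 0.15 for erythroid cells and -1.83, -0.39 and 0.05 for neurons. Array 2 was thus low in muscle markers (7 of 8 below 0) and neuronal markers (8 of 8) too, and Pdk4 had its highest ratio there. Over the 4 arrays, all 8 neuronal markers had a mean below 0, with a median of -1.19, and of -0.78 without array 1. Under median centring, a scaling described below, the muscle median of array 1 was 0.17, next to a median of 0.19 over all fully measured genes there, while those of the neutrophil, erythroid and neuronal markers stayed below 0, at -0.34, -0.46 and -1.80. The 8 adipocyte markers had medians of -0.06, 0.40, -0.16 and 0.77 on arrays 1 to 4, where 4, 1, 5 and 1 of them were below 0. Fabp4, the fatty acid carrier of fat cells, was picked out after its values were seen, with ratios of -1.24, 0.78, -0.46 and 0.70. Plin1 and Car3 of the list had the signs of Fabp4 on every array. The others differed from it, with Retn and Cidec above 0 on every array. The summed scaled signal of the muscle markers ranged from 268338 to 444545 in the DEP extracts and from 279170 to 696054 in the control extracts. For the adipocyte markers the ranges were 94091 to 223112 and 113380 to 279942, and for the neuronal markers 12381 to 28338 and 21269 to 49272. The sums of the neutrophil markers ran from 248623 to 517562 and from 307058 to 572070, and those of the erythroid markers from 67657 to 113943 and from 78479 to 120209. Every muscle and adipocyte marker was clearly detected in each extract, and the part of these cells in the ratios of Pdk4 and the others was not tested.

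**Figure D3:**
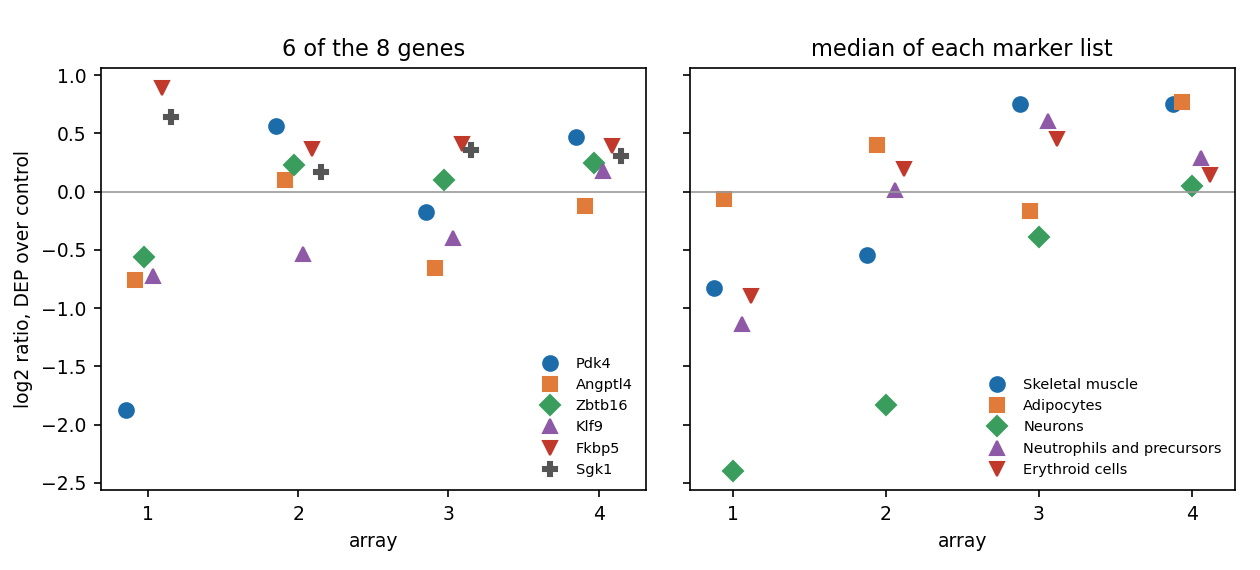
Log2 ratio of 6 of the 8 genes on each array (left) and median log2 ratio of 5 lists of cell type markers on each array (right). On array 1, where Pdk4 is at -1.87, the neuronal median is at -2.40 and the muscle median at -0.82, while Fkbp5 and Sgk1 have their highest ratios there, 0.89 and 0.64.

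By the mean over the 4 arrays, the list medians were 0.04 for muscle, 0.13 for adipocytes, 0.05 for neutrophils and -0.05 for erythroid cells. Without array 1 they were 0.33, 0.39, 0.33 and 0.24, and under median centring 0.72, 0.78, 0.66 and 0.38, where the fully measured genes had a median of 0.26. The 7 B cell markers had a median of 0.00, though all 7 were below 0 on array 1, with a median of -0.55 there. The median was 0.08 for 5 T cell markers, 0.20 for 5 macrophage markers and 0.31 for 5 bone markers. It was 0.09 for 6 markers of airway-type epithelium, -0.12 for 5 endothelial markers and -0.93 for 6 astrocyte markers. Under median centring the endothelial median was 0.085, still below the 0.26 of the fully measured genes. Without array 1 the airway median turned to -0.11, the astrocyte median was -0.29 and the macrophage median 0.37, and for B cells, T cells, bone and endothelium the values were 0.20, 0.18, 0.39 and -0.15. Airway-type epithelium, which lines the middle ear, was present by its markers Foxj1 and Bpifa1, both well above background throughout. Of the same list, the mucin gene Muc5b was lower on all 4 arrays, with a mean of -1.41 (unadjusted p = 0.00949, adjusted p = 0.167, limma). The means of the others were 0.20 for Bpifa1, 0.34 for Krt5, 0.47 for Epcam, -0.02 for Foxj1 and -0.65 for Ltf. Neuronal Snap25 and Syt1 were well above background in every extract too.

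The genes upstream of the response were described through a list of 11 receptor and hormone handling genes. At an unadjusted p under 0.05, 0 of 11 were higher and 2 lower, beside 18.7% of all genes in either direction, and none passed after adjustment. Nr3c1, the glucocorticoid receptor itself, had ratios of -0.56, -0.02, 0.06 and 0.20 and a mean of -0.08 ± 0.33 (SD, n = 4; adjusted p = 0.804, limma), which turned to 0.080 without array 1. Ptges3, the p23 co-chaperone that stabilises the receptor's complex with Hsp90, was lower on all 4 arrays, at -0.27, -0.23, -0.33 and -0.47, with an unadjusted p of 0.0278 and an adjusted p of 0.227. The unadjusted p was 0.0679, 0.0953 and 0.122 without arrays 2, 3 and 4, and its mean was 0.20 under the median-centred scaling described below, still under the median of 0.26 over fully measured genes. The other gene was Nr0b1, whose signals were close to background on every array. Its mean depended on the processing, at -1.04 as deposited, -0.16 with normexp and loess and -0.36 with median centring. Fkbp4, the co-chaperone that opposes Fkbp5 in the receptor complex, was the only gene of the list with a mean above 0, at 0.32 (unadjusted p = 0.0578). The median of the list was -0.21, and under that scaling it was 0.22, again below the median of all fully measured genes, with 7 of 11 genes under that median and Nr3c1 above it at 0.48. Without array 1 the list median was -0.087 and 4 of the 11 genes had a mean above 0.

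Of 25 other glucocorticoid response genes, 2 were higher at an unadjusted p under 0.05 and 0 lower, beside 18.7% of all genes in either direction. Per1, a clock gene with a glucocorticoid response element of its own, had ratios of 0.52, 0.55, 0.65 and 0.86, a mean of 0.64 ± 0.15 (SD, n = 4), an unadjusted p of 0.00241 and an adjusted p of 0.122 in limma. All 4 of its ratios were close together, and its spread was below that of each of the 8 genes. Bcl6, a transcriptional repressor of lymphocytes and metabolic tissues, had ratios of 1.05, 0.15, 0.69 and 0.30 (mean 0.55, adjusted p = 0.234). Per1 kept an unadjusted p under 0.05 with each array left out in turn (0.00567 to 0.0149), while that of Bcl6 was 0.0733 without array 1 and 0.105 without array 3. Of the 25 genes, 20 had a mean above 0, as had 54.2% of all genes, with a list median of 0.18 beside 0.03. Without array 1 these were 13 of 25 beside 53.8% of all genes, and a median of 0.060. Several genes of this list had their highest ratio on array 1, at 1.84 for Dusp1, 1.96 for Zfp36, 2.42 for Cebpb and 1.85 for Cdkn1a. Il1r2 was at 1.95 there, and Slc19a3, well above background in the DEP channel on 1 array only, at 3.63. On the other arrays these genes reached 0.91 at most, and Cebpb and Cdkn1a were at -1.12 and -0.68 on array 4. Others of the list, such as Cebpd, Mt1, Mt2 and Lcn2, had their lowest ratio on array 1. None of these genes, named after their values were seen, passed an unadjusted p of 0.05.

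Of 30 genes of the fasting, FoxO and PPAR response, 29 were tested. At an unadjusted p under 0.05, 3 were higher and 1 lower, again beside 18.7% of all genes, and 23 of the 29 had a mean above 0, beside 54.2%, with a list median of 0.21. Cpt1a, which carries long-chain fatty acids into mitochondria, was higher on all 4 arrays, at 0.38, 0.30, 0.12 and 0.33 (mean 0.28, unadjusted p = 0.0458). Cidec, a lipid droplet protein of fat cells that is also in the adipocyte marker list, had ratios of 0.23, 0.80, 0.25 and 1.08 (mean 0.59, unadjusted p = 0.0268). Foxo3, one of the forkhead factors, had a mean of 0.48 but was well above background in the control channel on 1 array only, and its mean was 0.066 with normexp and loess and -0.075 with median centring. Txnip, a glucose-sensing brake on glucose uptake, was lower on all arrays, at -0.43, -0.35, -0.62 and -0.18 (mean -0.40, unadjusted p = 0.0219). Its mean was 0.046 under median centring, or -0.22 relative to the median gene. None of these 4 passed after adjustment, with adjusted p between 0.165 and 0.262 in limma. The unadjusted p of Cpt1a was above 0.05 whichever array was left out (0.0719 to 0.148), that of Cidec without array 2 or 4 (0.0994 and 0.0828) and that of Txnip without array 1, 2 or 3 (0.0528, 0.0675 and 0.0954). Without array 1 the list median was 0.19, with 20 of 29 genes above 0. Pck1, which makes glucose from fasting substrates, had ratios of -1.11, 0.34, -0.21 and 0.44, and Cpt1b, the muscle form of the carnitine enzyme, had -0.77, 0.65 and 0.45 on arrays 1, 2 and 4 and a ratio just below 0 on array 3. Both, picked out after their values were seen, had the sign of Pdk4 on every array, as had Lipe and Pnpla2 of the same list. The share of all genes with these signs was not counted.

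**Figure D4:**
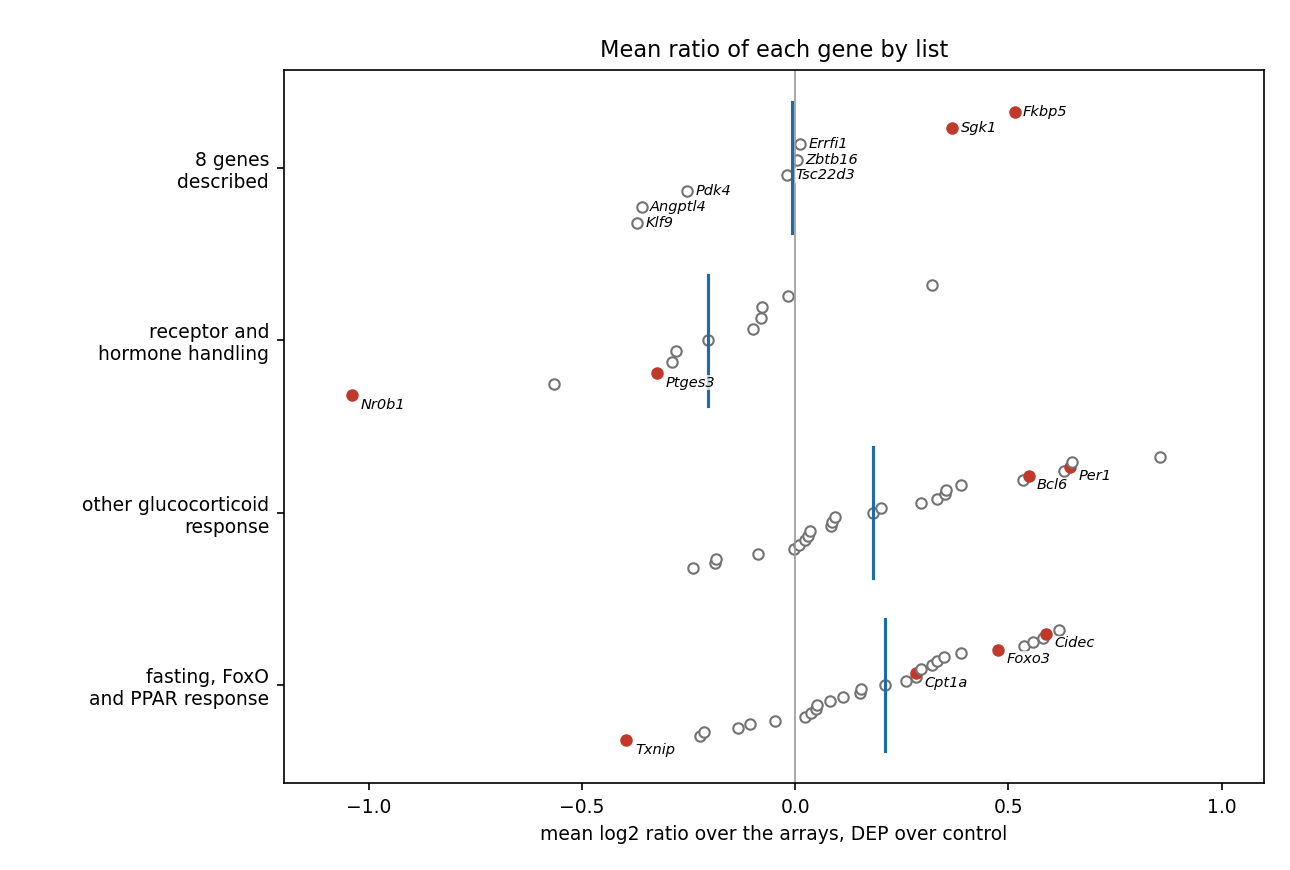
Mean log2 ratio over the arrays of the 8 genes and of the genes of 3 related lists, each point a gene, filled where the unadjusted p in limma was under 0.05, with the median of each group as a bar. The bars stand at -0.01, -0.21, 0.18 and 0.21, and Nr0b1, the leftmost point, was not well above background.

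The genes with the pattern closest to that of Fkbp5 were found by the root mean square difference of the 4 ratios among 14274 other named genes that were well above background throughout. Among the closest were Plau, Wdr43, Sh3rf3 and Eef1aknmt, at differences of 0.06, 0.08, 0.10 and 0.10. Plau had ratios of 0.88, 0.26, 0.40 and 0.36. For Pdk4, which was added to this search after its values were seen, the closest were Slc27a2, Prr18, Nmrk2, Rprm and Igsf11, at 0.10 to 0.29. Slc27a2 had ratios of -1.75, 0.62, -0.07 and 0.57.

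The values of the 8 genes depended on the scaling of the 2 channels. With normexp background correction and centring of each array on its median in place of the deposited ratios, the 18342 fully measured genes had a median ratio of 0.26 instead of 0.03. Under that scaling the mean was 0.78 for Fkbp5 and 0.71 for Sgk1, and both passed adjustment in limma (adjusted p = 0.0351 and 0.0382), as did 3559 of the 32360 genes tested under that scaling (11.0%), 3116 of them higher. Taken relative to the median of the fully measured genes, Fkbp5 was at 0.49 with the deposited ratios and at 0.52 with median centring, and Sgk1 at 0.34 and 0.45. The means of Tsc22d3, Pdk4 and Angptl4 were 0.42, 0.19 and 0.047 under that scaling, in place of values below 0. Relative to the same median, however, Pdk4, Angptl4 and Klf9 stayed below it, at -0.068, -0.21 and -0.29, while Tsc22d3 went from -0.048 to 0.15, Zbtb16 from -0.024 to 0.012 and Errfi1 from -0.016 to 0.12. With normexp and loess, Angptl4 was at -0.41 and Klf9 at -0.42, with unadjusted p of 0.0369 and 0.0337, and the means of Zbtb16 and Errfi1 turned to -0.059 and -0.053. Fkbp5 and Sgk1 were above 0 under every one of the 13 alternatives, but only the 2 normexp settings could have turned their signs. The others used the same ratios, which were above 0 on every array, or left an array out.

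**Figure D5:**
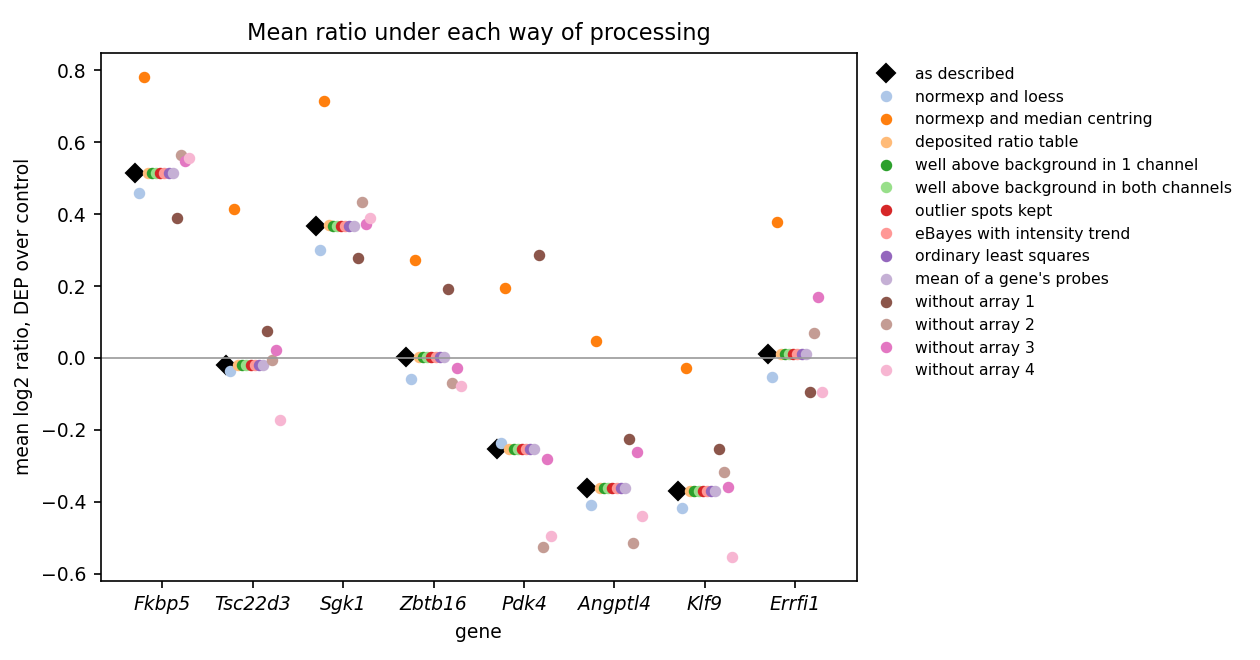
Mean log2 ratio of each of the 8 genes as described (diamonds) and under 13 other ways of processing (points). Median centring lifts all 8 genes, Fkbp5 to 0.78 and Sgk1 to 0.71, and the mean of Pdk4 moves from -0.25 to 0.29 without array 1.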

How the data were processed

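RNA of mouse ears was hybridised to 4 two-colour 4x44K arrays. The authors read the spots with Agilent Feature Extraction 10.10.1.1, according to the submitters' processing notes, and deposited background-subtracted, dye-normalized intensities for each array. They also deposited, as a log10 value, the ratio of the Cy5 to the Cy3 intensity, with 0 where no ratio could be had. This was put on the log2 scale. Scaled signals are the 2 processed intensities of a spot after quantile scaling of the mean signal between arrays, which leaves the ratio as it was.

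Control spots, outlier spots and those with no ratio did not enter, and probes with at least 3 ratios were kept (31577 probes). Probes were named through RefSeq accessions (27655 of 39429), and the brightest probe stood for its gene. Each probe's ratios were fitted with an intercept by lmFit and eBayes in limma 3.58.1 under R 4.3.3 (2-sided, Benjamini-Hochberg over all probes; prior degrees of freedom 1.98). Exact sign changes of 4 ratios cannot give a p below 0.125, so no such test was made. Genes were counted and promoters searched with pandas 2.3.3 and numpy 2.4.6 under Python 3.11.15, and plots made with matplotlib 3.10.9. Simulated ratios served to test the fit.

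The 8 genes, the 3 related lists and the 12 marker lists were chosen with earlier results of these data known. Related genes were named where the unadjusted p was under 0.05, the sign was the same on all arrays and both channels were well above background, plus Nr3c1. Others are named where a count of 5 or fewer called for it. Of the genes with a pattern close to that of Fkbp5, 1 is not reported here. The alternatives were normexp with loess or median centring, the authors' table of ratios, 2 filters on dim probes, outlier spots kept, an intensity trend, ordinary least squares, the mean of a gene's probes and each array left out. The arrays' number limits the precision, and 0 columns of values were without a sample.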

Additional observations from a re-analysis of the deposited data

Results flagged for a closer look

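Dixon's gap test was run on the 4 ratios, the 4 DEP signals and the 4 control signals of each of the 8 genes. Of these 24 sets of values, 3 held a value set apart from the rest, while chance gives about 1 in 20. The log2 ratio of Fkbp5 on array 1 was 0.89, against 0.36 to 0.41 on the other arrays, and the gap was 0.912 of the whole range. Its scaled DEP signal on the same array was 11.12 (log2), against 10.38 to 10.50, with a gap of 0.831 of the range. These 2 values share 1 spot of 1 array and are not independent. The scaled control signal of Angptl4 on array 3 was 13.35, against 12.50 to 12.58 in the other control extracts, a gap of 0.905 of the range. The ratio of Zbtb16 on array 1 came close to the limit, with a gap of 0.819 of the range.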

How the results depend on the processing

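The means of Fkbp5 and Sgk1 stayed above 0 under all 13 alternatives, though only the 2 normexp settings could have turned their signs. With normexp and median centring the 2 means were 0.78 and 0.71 and passed adjustment, which no other alternative gave. Under that setting 7 of the 8 genes had a mean above 0 instead of 4, the means of Tsc22d3, Pdk4 and Angptl4 were 0.42, 0.19 and 0.047 in place of values below 0, and 29 instead of 5 related genes were higher at an unadjusted p under 0.05. The fully measured genes had a median of 0.26 there, and 5 of the 8 genes were above it, with Pdk4, Angptl4 and Klf9 below. With normexp and loess, 2 of the 8 genes had a mean above 0, 2 instead of 0 were lower at that threshold, and Zbtb16 and Errfi1 turned to -0.059 and -0.053. With the mean of a gene's probes, 3 related genes were higher. Leaving out 1 array at a time, the mean of Fkbp5 ran from 0.39 to 0.56 and that of Sgk1 from 0.28 to 0.43. Of the 8 genes, 1 to 2 were then higher and 0 to 1 lower at an unadjusted p under 0.05, and 2 to 5 had a mean above 0. Among related genes, 3 to 9 were higher and 1 to 4 lower. Left-out arrays turned Tsc22d3 (-0.17 to 0.075), Zbtb16 (-0.077 to 0.19), Pdk4 (-0.53 to 0.29) and Errfi1 (-0.095 to 0.17). The cause of these moves was not tested. Each ratio pairs the 2 extracts of an array, so the fit is itself paired by array, and the arrays share no number across groups that a further block could use. All 8 probes were well above background, so dim signal does not limit them.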
